A study of Mus musculus with 2 samples.

Results

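The transcripts of 9 chemokine receptor genes (Ccr1, Ccr2, Ccr6, Ccr7, Ccr9, Cx3cr1, Cxcr2, Cxcr3 and Cxcr5) were followed across the cell types of the inflamed mouse peritoneum. The genes were taken by symbol, and all 9 were found once in both libraries among 31053 genes. Mice of 10 to 14 weeks had received 1 mg of zymosan, a yeast cell wall preparation, in the peritoneum, and all cells there were collected 3 days later. Each group is 1 single-cell library made from a pool of 4 replicates. The Cd36-/- library comes from LysM-Cre mice crossed to floxed CD36 mice, and the fl/fl library from floxed CD36 mice. LysM-Cre acts in myeloid cells, neutrophils included, so the group name does not mean that macrophages alone can lose the gene. Zymosan was given to both groups, and no uninjected library was analysed here. In what follows a pair of values is given for the Cd36-/- library first and for the fl/fl library second. With 1 library per group there is no test between the groups. Every interval below is a 95% interval for counting error, and says nothing of how mice differ.

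Chemokine receptors are G protein-coupled receptors that steer leukocytes along gradients of secreted chemokines. Binding of a chemokine starts Gi signalling and movement, after which arrestins take the receptor off the surface. Each receptor has its own set of ligands, and cell types differ in the receptors they carry, so the family is widely used to tell recruited from resident and naive from effector cells. In the peritoneum, Ccr2 brings monocytes from the blood, whereas Gata6-dependent large peritoneal macrophages (LPM) are resident, and B-1 cells are a B cell type typical of this cavity.

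The Cd36-/- library held 15023 cells after filtering and the fl/fl library 14005, with medians of 6570 and 6897 UMIs (counted RNA molecules) per cell. The libraries shared 383 cell barcodes. Cells were clustered without the receptor genes and named from markers, so a name means that a cluster resembles the type. Receptors were still among the 10 leading genes of some clusters: Ccr2 and Cx3cr1 of the MHC class II macrophages, Ccr2 of a Gata6-low cluster, Cxcr2 of the neutrophils and Ccr7 of the B-2 cells and migratory dendritic cells. Of other chemokine receptors, also left out of the clustering, Cxcr6 was among those of the γδ T cells and Xcr1 of the type 1 conventional dendritic cells. Of the classes, 10 had at least 50 cells in each library: LPM, Gata6-low macrophages, MHC class II macrophages, neutrophils, type 2 conventional dendritic cells (cDC2), NK cells, CD4 T cells, CD8 T cells, B-1 cells and B-2 cells. The unnamed clusters held 6.13% and 6.11% of cells. Cd36 itself was present in the macrophages of both libraries, at 172 and 241 UMIs per 1000000 UMIs of the class (CPM), a log2 ratio of -0.49 (-0.52 to -0.46). The labels do not say which exons are floxed, so a 3′ tag of Cd36 does not check the deletion.

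Of the 9 genes, 5 lie on chromosome 9 of mm10. Ccr9, Ccr1 and Ccr2 are neighbours there within 435 kb (positions 123678439 to 124113557). Ccr1 spans chr9:123962124-123968692 on the minus strand and Ccr2 chr9:124101950-124113557 on the plus strand. Cx3cr1 (chr9:119901616-120069879) and Cxcr5 (chr9:44511787-44561877) lie apart from that group. The others are Cxcr2 (chr1:74153989-74161246), Ccr7 (chr11:99144196-99155077), Ccr6 (chr17:8236043-8257141) and Cxcr3 (chrX:101731535-101734269). Reads of 3′ libraries come from the ends of transcripts. Over the last 500 bases of their transcripts, 7 of the 9 genes shared no 50-base stretch with another gene in GENCODE, and the other two, Cx3cr1 and Cxcr2, shared 1.33% and 2.22% of such stretches. Ccr9 has exons that overlap the predicted gene Gm17200 on the same strand, though it is among the 7 genes that shared no stretch there. How reads from the overlap were counted was not tested.

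The 250 bases before the RefSeq start (GRCm38.p6) are shown for Ccr1 and Cxcr2, because both genes were highest in neutrophils in these data. Capitals mark GAGGAA, or TTCCTC where it lies on the other strand, a core of binding sites for the myeloid factor PU.1. The Ccr1 window is chr9:123968693-123968942 on the minus strand, and the Cxcr2 window chr1:74153744-74153993 on the plus strand. Both are written 5′ to 3′ along the gene.
Ccr1: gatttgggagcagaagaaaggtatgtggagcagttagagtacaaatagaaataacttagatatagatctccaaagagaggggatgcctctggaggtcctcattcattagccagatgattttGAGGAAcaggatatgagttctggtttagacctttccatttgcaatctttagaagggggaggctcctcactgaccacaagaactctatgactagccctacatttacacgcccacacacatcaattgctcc
Cxcr2: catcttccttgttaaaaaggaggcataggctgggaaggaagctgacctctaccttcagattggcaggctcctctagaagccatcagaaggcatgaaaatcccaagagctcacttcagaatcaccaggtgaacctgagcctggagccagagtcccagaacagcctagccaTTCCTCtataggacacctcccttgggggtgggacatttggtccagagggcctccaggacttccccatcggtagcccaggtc
Each window holds the motif once, beginning 129 bases before the start in Ccr1 and 81 bases before it in Cxcr2. Windows, 8 in all, were found for 7 of the 9 genes. The motif was in 4 of the 8: a window each of Ccr1, Cxcr2 and, of the genes highest in lymphocytes, Ccr6 and Cxcr3. Ccr6 has a further window, which did not hold the motif. The motif was also absent from the windows of Ccr2, Cx3cr1 and Ccr9. Some windows lie partly in GENCODE exons of the same gene: 250 bases for Cx3cr1, 233 for Ccr2, 122 for Cxcr3 and 42 for Ccr9. The Ccr1 window had 0 such bases and the Cxcr2 window 5. The Cx3cr1 and Ccr2 windows are thus wholly or mostly annotated exon, and say little of the sequence before the GENCODE gene. The motif is a common sequence: searched on both strands, it was present in 23.3% of all 32851 windows of this length. A match describes the letters and not a bound site.

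Ccr2, the receptor for Ccl2, Ccl7 and Ccl12 that is used by classical monocytes, was highest in the MHC class II macrophages. There it stood at 991 CPM (944 to 1038) and 1010.5 CPM (970.4 to 1052). Next came NK cells at 468 and 471 CPM and cDC2 at 419.8 and 377 CPM. The intervals of NK cells and cDC2 overlapped in the Cd36-/- library and were apart in the other. At a finer clustering the cDC2 cluster had 549 CPM (512 to 588) and 447 CPM (421 to 474). The order of NK cells and cDC2 thus depends on how cDC2 are bounded. Gata6-low macrophages followed at 286 CPM (282 to 291) and 335 CPM (329.8 to 340.4). LPM were near the bottom of the order with 14.0 and 13.3 CPM, close to B-2 cells at 14.97 and 11.4 CPM. Ccr2 was thus carried by the macrophage classes with less Gata6 (31.7 CPM in both libraries in the Gata6-low class, 5.17 and 3.80 CPM in the class II cells), whereas LPM, with 124 CPM of Gata6 in both, held about as much Ccr2 as B-2 cells and more than B-1 cells, which had 9.30 CPM (7.46 to 11.5) and 6.75 CPM (5.56 to 8.12). The first place depends on how the class is bounded: with classes gated cell by cell, MHC class II macrophages had 476 and 551 CPM of Ccr2, and cDC2 came first with a mean of 575 CPM. The gated class holds largely other cells. Of its cells, 95 were in the MHC class II class named by clustering and 306 in the Gata6-low class. In turn, 247 cells of the class named by clustering gated as Gata6-low.

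Shares of cells were compared after thinning every cell to 1000 UMIs, because a deeper cell shows a given transcript more often. Ccr2 was then found in 65.0% and 59.5% of MHC class II macrophages and in 37.8% and 32.4% of NK cells. In Gata6-low macrophages the share was 23.7% (22.6 to 24.8) and 27.2% (25.9 to 28.5). Without thinning, 68.7% and 75.5% of the latter cells had a UMI, at medians of 8672 and 9993 UMIs. B-2 cells, which are not known for Ccr2, gave thinned shares of 1.42% and 1.49%, B-1 cells gave 0.922% and 0.895%, and LPM gave 1.17% and 1.28%. The LPM share lay between those of the B cell classes, with overlapping intervals. Gata6-low macrophages, the most numerous class, held 76.9% and 73.8% of all Ccr2 UMIs.

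**Figure D1:**
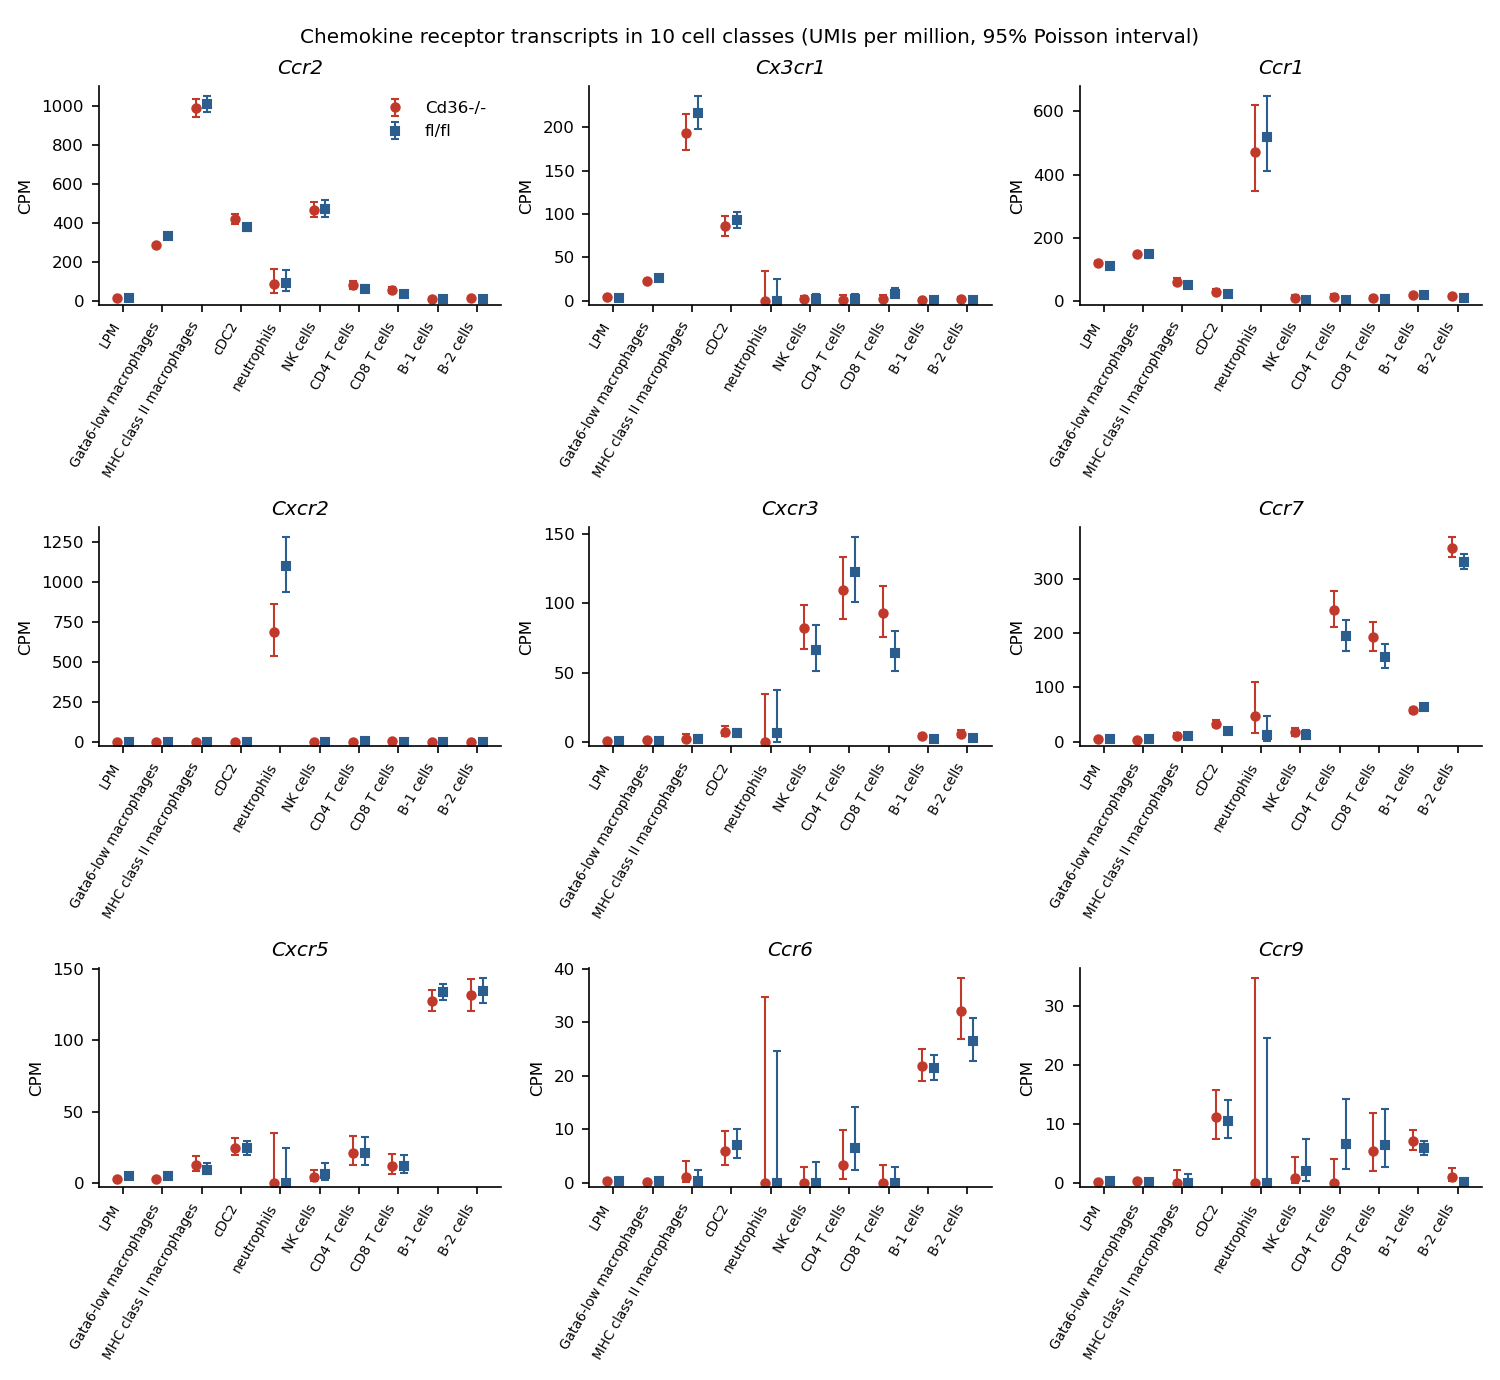
Level of each receptor (CPM, linear axes that differ between panels) in 10 cell classes, with circles for the Cd36-/- library, squares for the fl/fl library and bars for the 95% Poisson interval. Each receptor peaks in 1 or a few classes in both libraries: Ccr2 and Cx3cr1 in MHC class II macrophages, Ccr1 and Cxcr2 in neutrophils, Cxcr3 in NK and T cells, and Cxcr5 and Ccr6 in B cells. Ccr7 peaks in B-2 cells, followed by CD4 and CD8 T cells, with B-1 cells below these.

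The Gata6-low class was made of 4 clusters, and they differed in Ccr2. The cluster with most had 467 and 601 CPM. Ccr2 was itself the first of its leading genes, before Tmem176b, Aif1 and the class II gene H2-Ab1, so this height is a description of the cluster. The cluster led by Folr2 and Cbr2 had 278 and 346 CPM, the cluster high in Arg1 and Chil3, markers of alternative activation, had 194 and 221 CPM, and the cycling cluster had 177 and 235 CPM. In all 4 the Cd36-/- value was the lower, with log2 ratios of -0.36 (-0.42 to -0.31), -0.31 (-0.37 to -0.25), -0.19 (-0.26 to -0.12) and -0.41 (-0.50 to -0.31) in that order. The class as a whole gave -0.23 (-0.26 to -0.20), a fold of 0.854. Its makeup differed as well: the cluster with most Ccr2 was 29.3% and 20.98% of the class. In MHC class II macrophages the ratio was -0.03 (-0.12 to 0.06) and in NK cells -0.01 (-0.19 to 0.17). Whether these ratios differ between the classes was not tested.

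Cx3cr1, the receptor for fractalkine (Cx3cl1) and a mark of tissue and patrolling mononuclear phagocytes, kept to fewer classes than Ccr2. MHC class II macrophages had 194 CPM (174 to 215) and 216 CPM (198 to 236). cDC2 had 85.7 and 92.8 CPM and Gata6-low macrophages 22.5 and 26.6 CPM, and these 3 steps did not overlap. LPM had 4.03 and 3.30 CPM. No Cx3cr1 UMI was seen in 105 and 134 neutrophils, which at 3 counts allows up to 28.3 and 19.98 CPM. NK cells had 2 UMIs in each library.

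Within the Gata6-low class Cx3cr1 followed the same order of clusters as Ccr2 at the top. It was 40.2 and 59.8 CPM in the cluster with most Ccr2, 27.5 and 34.6 CPM in the Folr2 cluster, and only 5.65 and 5.30 CPM in the Arg1 and Chil3 cluster, nearer the LPM level. The log2 ratio between libraries was -0.57 (-0.75 to -0.40) in the first of these, -0.33 (-0.53 to -0.13) in the second and -0.11 (-0.46 to 0.24) in the cycling cluster, while the third was under the level set for a comparison. Over the class it was -0.25 (-0.36 to -0.13). At a finer clustering, with MHC class II clusters of 634 and 627 and of 179 and 276 cells, the ratio in the Gata6-low class was -0.08 (-0.24 to 0.08), so this difference depends on the clustering. With per-cell gates, cDC2 rather than MHC class II macrophages had most Cx3cr1, a mean of 102 CPM. Most of the gated MHC class II macrophages came from the Gata6-low class named by clustering.

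**Figure D2:**
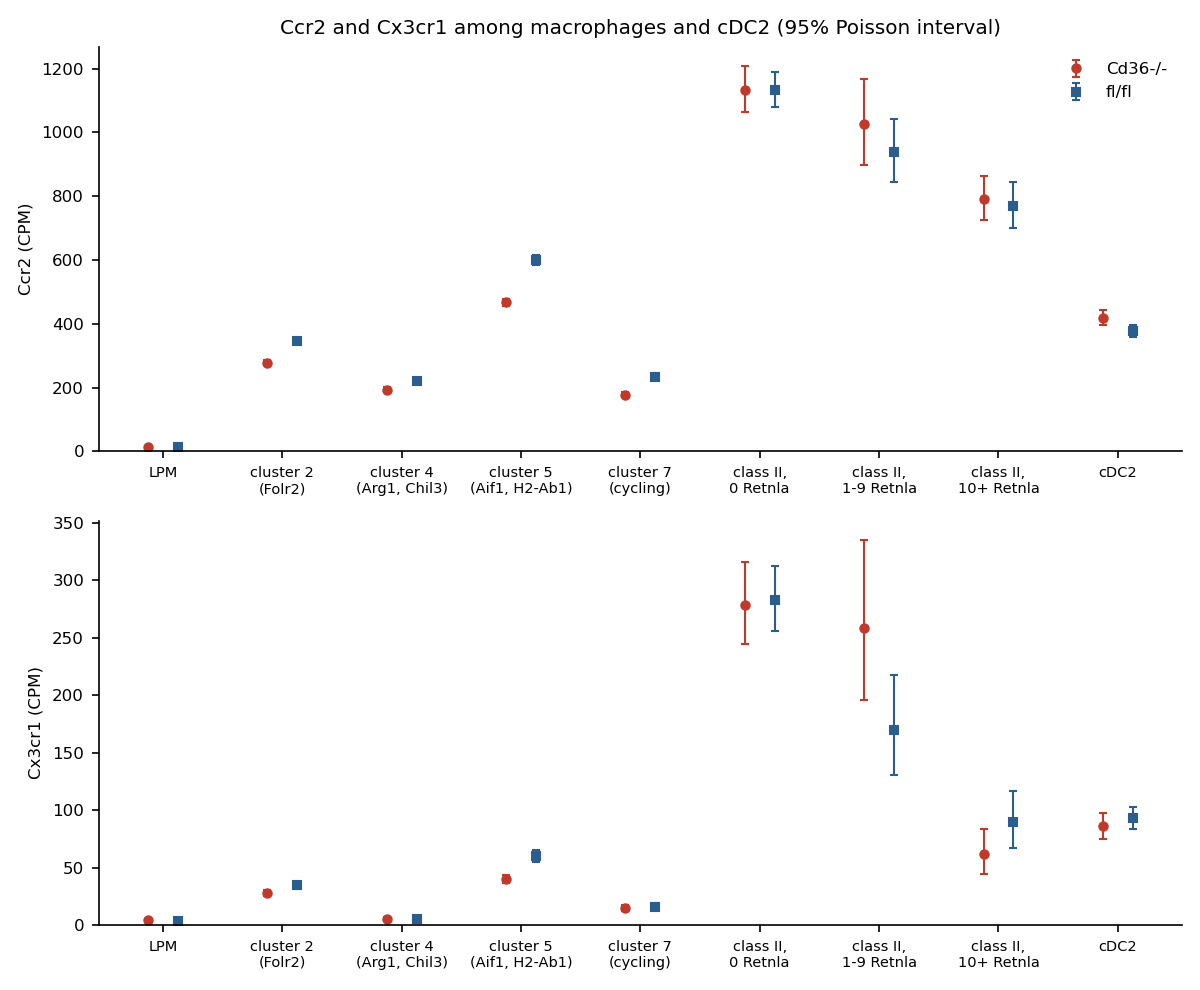
Ccr2 (top) and Cx3cr1 (bottom) in CPM, in LPM, the 4 clusters of Gata6-low macrophages, MHC class II macrophages split by their Retnla UMIs, and cDC2; circles are the Cd36-/- library, squares the fl/fl library, and bars the 95% Poisson interval. In the 4 Gata6-low clusters Ccr2 is lower in the Cd36-/- library (177 to 467 CPM against 221 to 601 CPM), and Cx3cr1 is lowest among the class II cells where Retnla is high.

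The MHC class II macrophages held both cells with and cells without Retnla, a secreted protein of alternatively activated macrophages. The split by Retnla was chosen after the values had been seen and is given as a description. In the 134 and 190 cells with no Retnla UMI, Cx3cr1 was 279 CPM (244 to 316) and 283 CPM (256 to 313). In the 78 and 83 cells with 10 or more Retnla UMIs it was 61.9 CPM (44.4 to 84.0) and 89.4 CPM (67.2 to 117). Ccr2 was lower in the Retnla-high cells too, at 793 and 769.9 CPM against 1134 CPM in both libraries. Ccr1 ran the other way, with 71.0 and 77.8 CPM in Retnla-high cells and 51.3 and 43.7 CPM in cells without Retnla, although its intervals in the Cd36-/- library overlapped. The pattern of high Cx3cr1 without Retnla and low Cx3cr1 with it was present in both libraries.

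Ccr2 and Cx3cr1 were also found in the same cells. Among Gata6-low macrophages thinned to 1000 UMIs, Ccr2 was seen in 43.5% (35.4 to 52.0) of the cells with a Cx3cr1 UMI and in 23.2% (22.1 to 24.3) of those without in the Cd36-/- library. The fl/fl library gave 51.1% (42.3 to 59.9) and 26.4% (25.1 to 27.8). In MHC class II macrophages, where most cells had Ccr2, the shares were 69.2% against 64.2%, and 61.7% against 59.0%, with overlapping intervals. In cDC2 they were 51.6% against 29.9%, and 34.1% against 25.7%, again with intervals that overlapped. Joint detection above the rest of the class was therefore resolved in the Gata6-low class as a whole and not in the others. The Gata6-low class pools clusters that differed in both genes, and its cluster with most Ccr2 also had most Cx3cr1. The shares were not taken cluster by cluster, so joint detection among cells of the same cluster was not tested.

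**Figure D3:**
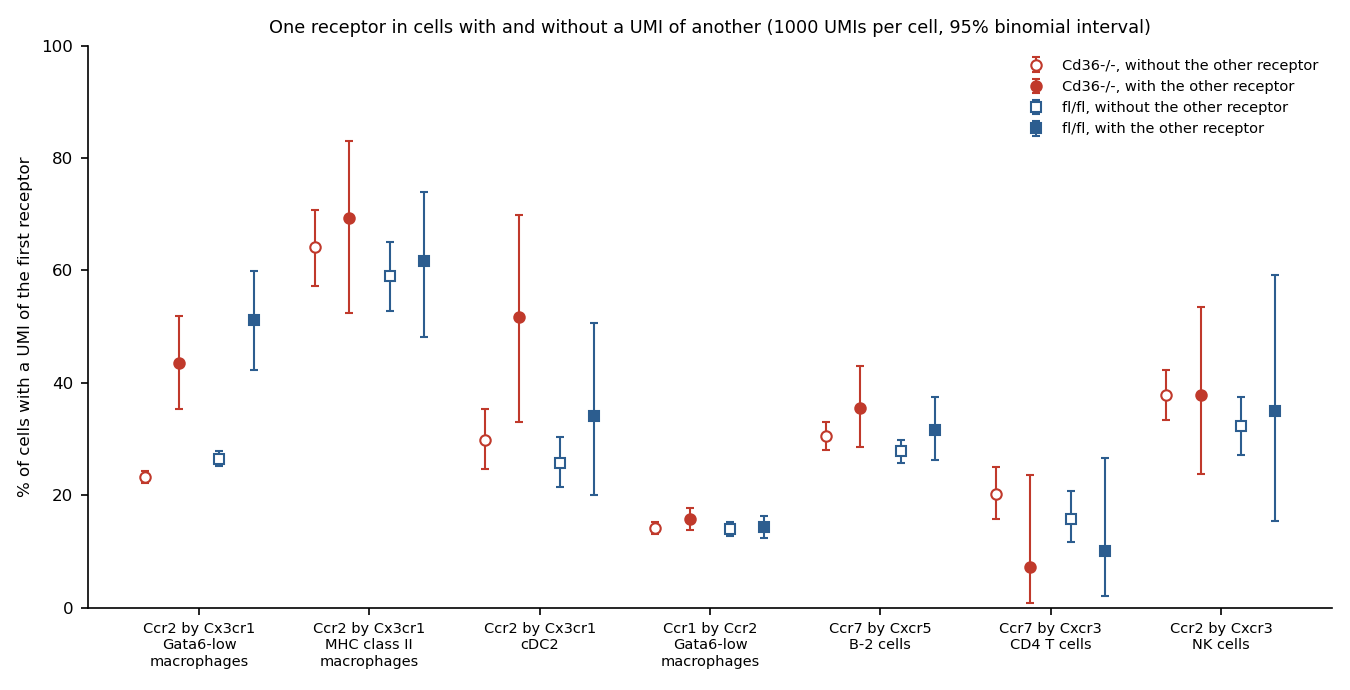
Share of cells (%) with a UMI of a first receptor among cells with (filled) and without (open) a UMI of a second receptor, all cells thinned to 1000 UMIs, for 7 pairs and classes; circles are the Cd36-/- library, squares the fl/fl library, and bars the exact binomial interval. Filled and open points stand apart in both libraries for Ccr2 by Cx3cr1 in Gata6-low macrophages (43.5% against 23.2%, and 51.1% against 26.4%) and overlap elsewhere.

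Ccr1, which binds Ccl3, Ccl5, Ccl6 and Ccl9 and is common on myeloid cells, was highest in neutrophils. They had 471 CPM (349.5 to 621) and 519.6 CPM (411 to 648). Unlike Ccr2, it was present in both large macrophage classes: 147 and 149 CPM in Gata6-low macrophages and 121 and 111 CPM in LPM. MHC class II macrophages, the class with most Ccr2, had less Ccr1, at 60.9 and 49.4 CPM. At the finer clustering, MHC class II clusters had 150 and 119 CPM (634 and 627 cells) and 95.4 and 77.9 CPM (179 and 276 cells). The lower Ccr1 of this class thus depends on how the class is bounded. Across the Gata6-low clusters Ccr1 lay between 116 and 157 CPM in the 2 libraries, a narrower range than that of Ccr2. At 1000 UMIs per cell, 15.7% and 14.3% of Gata6-low cells with a Ccr2 UMI had Ccr1, against 14.2% and 14.0% of those without it, with overlapping intervals.

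In LPM the log2 ratio of Ccr1 was 0.12 (0.05 to 0.20) and in Gata6-low macrophages -0.02 (-0.07 to 0.02). The LPM clusters did not share a sign: the cluster led by Alox15 gave 0.22 (0.08 to 0.37), the cluster led by Marco 0.10 (-0.01 to 0.20), the cycling cluster -0.22 (-0.46 to 0.03) and the cluster led by Cxcl2 and Cxcl1 -0.15 (-0.47 to 0.16). In B-2 cells Ccr1 was 15.2 CPM against 9.78 CPM, a log2 ratio of 0.64 (0.11 to 1.16), and in cDC2 28.8 CPM against 19.9 CPM, a ratio of 0.53 (0.07 to 1.00). The macrophage complement gene C1qa differed in the same direction in both classes, with 171 against 118 CPM in B-2 cells and 190 against 121 CPM in cDC2. The part of macrophage RNA in these Ccr1 values was not tested.

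Cxcr2, the receptor through which neutrophils answer Cxcl1 and Cxcl2, was a neutrophil transcript in these cells. It stood at 688 CPM (539 to 865) and 1099 CPM (938 to 1280), from 73 and 165 UMIs. No other class with 50 cells in each library exceeded 3.26 CPM, and neutrophils held 76.0% and 84.6% of all its UMIs. The log2 ratio was -0.68 (-1.09 to -0.27). With at least 500 genes per cell it was -1.57 (-2.47 to -0.77), and with neutrophils gated cell by cell -1.01 (-1.48 to -0.56), both past a 2-fold limit. These settings also changed the level itself. The mean Cxcr2 level of neutrophils was 893 CPM as reported, 604 CPM with at least 500 genes and 1010.5 CPM with gates.

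Neutrophils were few, 105 and 134 cells, and shallow, with medians of 719 and 909.5 UMIs. Other genes also differed between the libraries in this class. The neutrophil gene S100a8 was lower in the Cd36-/- library, as Cxcr2 was, at 20910 CPM and 29342 CPM. The B cell gene Cd79a was lower too, at 122 and 187 CPM, whereas C1qa was higher, at 848 and 639 CPM. The part of cell purity and depth in the Cxcr2 ratio was not tested. Ccr1 in the same cells gave -0.14 (-0.68 to 0.39).

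Cxcr3, the receptor for the interferon-induced chemokines Cxcl9 and Cxcl10, marked T and NK cells. CD4 T cells had 109 CPM (88.8 to 133) and 123 CPM (101 to 148). CD8 T cells followed (93.0 and 64.2 CPM), then NK cells (81.8 and 66.3 CPM). The intervals of CD4 and CD8 T cells overlapped in the Cd36-/- library and were apart in the other (101 to 148 against 51.0 to 79.8 CPM), and those of CD8 T cells and NK cells overlapped in both. All other classes with 50 cells in each library had at most 7.39 CPM. The 39 and 34 type 1 conventional dendritic cells had 40 and 29 UMIs, or 104 and 61.9 CPM.

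In CD8 T cells Cxcr3 gave a log2 ratio of 0.53 (0.10 to 0.97) between the libraries, and in CD4 T cells -0.17 (-0.57 to 0.24). T cells also differed at a finer clustering: the cluster named CD8 T cells had 64.7 and 51.9 CPM of Cxcr3, and a cluster of other T cells had 132 and 79.2 CPM. Ccr7 ran opposite, at 271 and 235 CPM in the first and 78.8 and 61.6 CPM in the second. With CD8 T cells gated cell by cell, the Cxcr3 ratio was 0.10. Ccr2 in CD8 T cells, 53.2 against 34.9 CPM, had a ratio of 0.61 (0.02 to 1.21), which was -0.08 with doublets kept and 0.02 with gates.

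Ccr7 guides cells toward lymph nodes along Ccl19 and Ccl21a and is carried by naive lymphocytes and migrating dendritic cells. The 12 and 15 migratory dendritic cells had 1134 CPM (915 to 1389) and 1042 CPM (881 to 1223), though from 93 and 149 UMIs. Of the larger classes, B-2 cells had most, 358 CPM (339.6 to 377) and 331 CPM (318 to 345), followed by CD4 T cells at 243 and 195 CPM and CD8 T cells at 192 and 157 CPM, which overlapped. B-1 cells had 57.9 and 63.6 CPM. B-2 cells held 44.9% and 50.3% of all Ccr7 UMIs. The B-2 level stood well above the B-1 level in both libraries.

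Between libraries, the Ccr7 log2 ratio was 0.32 (0.03 to 0.62) in CD4 T cells, 0.29 (0.01 to 0.58) in CD8 T cells, 0.11 (0.02 to 0.21) in B-2 cells and -0.14 (-0.29 to 0.01) in B-1 cells. In cDC2 it was 0.69 (0.24 to 1.13), from 33.3 against 20.7 CPM. That class also held cells with lymphocyte markers: all 7 T cell markers were detected in both libraries, summing to 287 against 144 CPM, and all 6 B cell markers, summing to 1211 against 1012 CPM. At the finer clustering, the cDC2 cluster had 8.90 and 6.84 CPM of Ccr7, from 13 and 17 UMIs, whereas the class above had 90 and 85 UMIs. A finer cluster left unnamed because its markers were mixed had 62.0 and 42.2 CPM. The part of lymphocyte RNA in the cDC2 ratio was not tested.

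Cxcr5, the receptor for Cxcl13 and the guide of B cells into follicles, was level in both B cell classes. B-2 cells had 132 CPM (121 to 143) and 135 CPM (126 to 144), and B-1 cells 128 CPM (121 to 135) and 134 CPM (129 to 139.8). The next classes were cDC2 at 24.8 and 24.3 CPM and CD4 T cells at 21.2 and 20.7 CPM. At the finer clustering, the cDC2 cluster had 4.11 and 8.45 CPM of Cxcr5, from 6 and 21 UMIs. The unnamed finer cluster with mixed markers had 49.8 and 52.2 CPM, so the place of cDC2 depends on the clustering. Thinned shares were 12.2% and 13.05% of B-2 cells and 12.6% and 12.98% of B-1 cells, against 0.301% and 0.639% of LPM. The B-1 and B-2 classes thus could not be ordered by Cxcr5, although Ccr7 set them apart. The B-1 class was mixed by per-cell gates: 1564 of its cells gated as B-1, 932 as B-2 and 927 were ungated. In the B-2 class 3272 cells gated as B-2 and 57 as B-1. With gates, the mean Ccr7 level of B-2 cells was 249 CPM, against 344.5 CPM as reported. The log2 ratio of Cxcr5 was -0.03 (-0.19 to 0.12) in B-2 and -0.07 (-0.17 to 0.03) in B-1 cells. Among B-2 cells, Ccr7 was seen in 35.6% and 31.7% of those with Cxcr5 and in 30.5% and 27.8% of those without, with overlapping intervals.

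Ccr6, the receptor for Ccl20, was a low transcript of B cells and of γδ T cells. B-2 cells had 32.2 and 26.5 CPM and B-1 cells 21.9 and 21.5 CPM. The 51 and 35 γδ T cells had 17 and 13 UMIs, which is 109 CPM (63.7 to 175) and 89.0 CPM (47.4 to 152). NK cells and CD8 T cells had no Ccr6 UMI in either library, which at 3 counts allows between 2.34 and 3.11 CPM. The log2 ratio was 0.28 (-0.06 to 0.61) in B-2 and 0.03 (-0.23 to 0.28) in B-1 cells.

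Ccr9, the receptor for Ccl25 that is known from the gut, the thymus and plasmacytoid dendritic cells (pDC), gave 143 and 188 UMIs in all. By level, cDC2 came first with 11.1 and 10.4 CPM, then B-1 cells at 7.08 and 5.85 CPM. Their intervals overlapped in the Cd36-/- library and were apart in the other. B-1 cells held 46.9% and 51.6% of its UMIs. Its highest level was in few cells. A finer cluster of 24 and 25 cells, left unnamed because it mixed pDC and basophil markers, had 192 CPM (123 to 286) and 169 CPM (112 to 244). The finer cDC2 cluster had 3 and 0 UMIs. Cells gated by pDC markers, 10 and 8 of them, had 11 UMIs in each library, or 218 and 210 CPM.

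B-1 cells also differed in Ccr9 at the finer clustering. In a cluster of 355 and 546 B-1 cells it was 18.7 CPM (13.7 to 24.96) and 16.02 CPM (12.6 to 20.02). In the larger cluster of 1004 and 1345 B-1 cells it was 3.26 CPM (1.99 to 5.04) and 1.79 CPM (1.06 to 2.83). The first cluster also had more Ccr1, 29.3 CPM in both libraries against 16.8 and 11.6 CPM, and less Ccr7, 21.97 and 24.1 CPM against 71.9 and 80.0 CPM. Cxcr5 was closer, at 118 and 127 CPM against 135 and 142 CPM. The 2 libraries thus showed the same difference between B-1 clusters, with more Ccr9 and Ccr1 in the smaller cluster and more Ccr7 in the larger. At 1000 UMIs per cell, none of the 10 B-1 cells with Ccr9 in each library had Ccr1, for which the Clopper-Pearson bound is 30.8%. Unthinned, Ccr1 was in 8.33% and 21.3% of B-1 cells with Ccr9 and in 11.7% and 10.8% of those without. The intervals were apart in the fl/fl library alone, where the cells with Ccr9 were also deeper (medians of 8736 against 7183.5 UMIs).

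Between the libraries, 39 of the 90 pairs of a receptor and a class had enough UMIs to be compared (a mean of at least 10 CPM and at least 20 UMIs over both). None of the 39 reached a 2-fold difference. The background was low in most classes: of all genes compared, 0.123% reached 2-fold in either direction in LPM, 0.169% in Gata6-low macrophages, 1.17% in MHC class II macrophages, 0.647% in cDC2, 0.201% in B-1 cells and 0.191% in B-2 cells. It was 3.62% in NK cells, 4.66% in CD4 T cells, 3.11% in CD8 T cells and 8.38% in neutrophils. A count of 0 among so few receptors is therefore near what the background would give. Of the 39 ratios, 24 were above 0 and 15 below, with a median of 0.07. In 13 of them the interval left out 0, which is 33.3%. Over all genes this share was 20.9% in the 10 classes together and 18.2% with the classes weighted as in the 39 pairs; it was not matched on the level of the genes, which sets the width of an interval. The per-class median over all genes lay between -0.02 and 0.07.

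**Figure D4:**
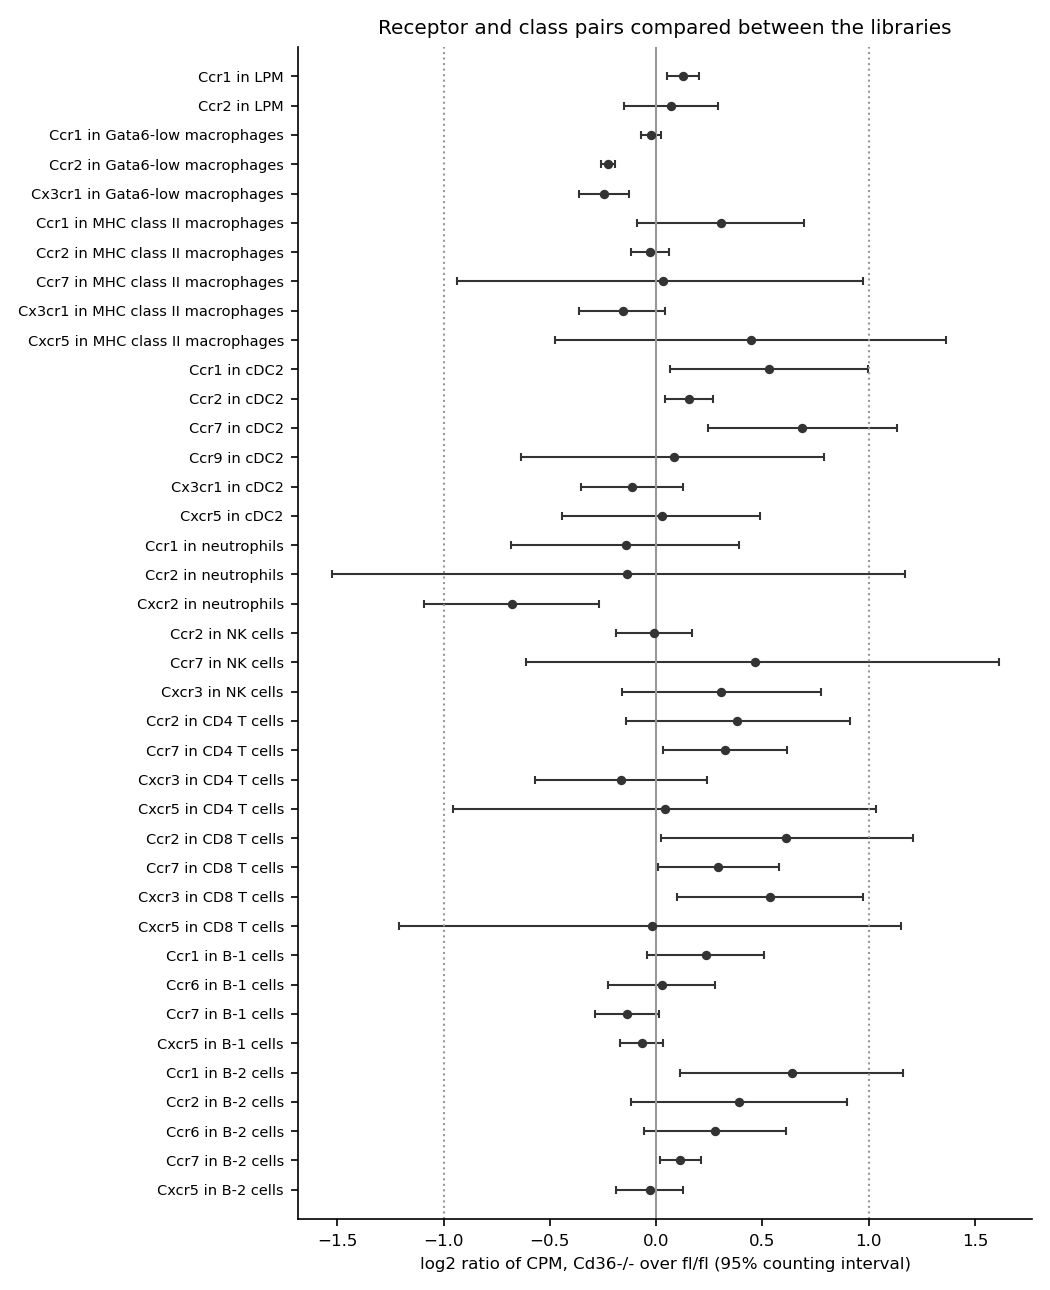
Log2 ratio of CPM, Cd36-/- over fl/fl, for the 39 compared pairs of a receptor and a class, with the exact 95% counting interval; the solid line is 0 and the dotted lines are 2-fold. No point lies beyond the dotted lines, and the lowest is Cxcr2 in neutrophils (-0.68).

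Related genes, in 3 groups, gave the setting. Of 21 ligands of these receptors in the files, 45 pairs of a gene and a class were compared, with 36 higher in the Cd36-/- library, 2 of them past 2-fold, and 9 lower, none past 2-fold. Over all genes in the 10 classes 52.5% of the pairs were higher in that library. The ligand pairs repeat a few genes, since Ccl5, Ccl6 and Ccl9 gave 10 pairs each and Cxcl13 gave 9, all 9 higher, and C1qa was also higher in that library in NK, CD4 T, CD8 T, B-1 and B-2 cells (117 to 202 against 81.1 to 135 CPM). The part of macrophage RNA in these ligand values was not tested. Those past 2-fold were Cxcl9, a ligand of Cxcr3, in MHC class II macrophages (34 against 7 UMIs, log2 2.73, 1.53 to 4.14), and Cxcl13, the Cxcr5 ligand, in B-2 cells (1.17, 0.78 to 1.57). Of the 10 classes Cxcl13 was highest in LPM, with 1382 against 1148 CPM, and in B-2 cells it was 32.4 against 14.4 CPM, beside the C1qa values given above. Ccl5, a Ccr1 ligand, was 22614 and 23049.5 CPM in NK cells, and Ccl6, another, 3722 and 4104 CPM in Gata6-low macrophages.

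Among 15 other chemokine receptors, 21 pairs were compared and 6 were past 2-fold, 1 higher and 5 lower in the Cd36-/- library. Over all genes the share past 2-fold ran from 0.123% in LPM to 8.38% in neutrophils. At any size, 12 of the 21 pairs were higher in the Cd36-/- library and 9 lower. With the classes weighted as in the 21 pairs, 53.8% of all genes were higher in that library. The interval left out 0 for 16.6% of all genes, weighted in the same way. All 5 lower pairs were Cxcr4, the receptor for Cxcl12. Cxcr4 was lower in 8 of the 8 classes in which it was compared, with log2 ratios from -1.39 to -0.30, and the interval lay below 0 in 7 of them. In B-2 cells it was 54.4 against 117 CPM (-1.11, -1.33 to -0.89), in B-1 cells 19.3 against 42.8 CPM (-1.15, -1.39 to -0.91) and in CD4 T cells 29.03 against 76.1 CPM (-1.39, -2.10 to -0.72). In the same B-2 and B-1 cells Cxcr5 gave log2 ratios of -0.03 and -0.07. The pair higher was Cxcr6 in NK cells, from 27 against 4 UMIs (2.34, 0.82 to 4.32). Of 25 genes of receptor signalling and desensitisation, 207 pairs were compared and 1 was past 2-fold, Rgs19 in neutrophils (15 against 10 UMIs, log2 1.08, -0.17 to 2.40).

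Genes with the most similar pattern were sought over the 10 classes, as the correlation of log2(CPM + 1) of the mean of the libraries among 6834 genes. For Cxcr2 these were Cxcr1 (r = 0.993), AC110211.1 and Stfa2l1. For Cxcr3 they were Lck (0.997), Ms4a4b and Skap1, and for Cxcr5 Btla (0.973), Scd1 and Snn. Cx3cr1 was closest to Tnip3 (0.980), Hpgd and Fam118b. Ccr1 was closest to Dnpep (0.988), Fam214b and Svip, and Ccr7 to Gm8369 (0.982), Prkd2 and Crlf3. Ccr6 was closest to Pik3c2b (0.957), Cacna1i and Ralgps2. The best matches were weaker for Ccr2 (Stard3nl, 0.915, then Vps29 and Psmd6) and for Ccr9 (Lysmd2, 0.885, then Slc25a4 and Mrto4). The 10 points of each correlation are classes of the same libraries that differ in depth, and no p-value is given.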

How the data were processed

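Total peritoneal cells were profiled with 10x Genomics 3′ v2 chemistry, 1 library per group. Each deposited matrix gives whole-number UMI counts, which the authors made with Cell Ranger on mm10, per the submitters' processing notes (software version 3.0.0 per the file headers); the annotation release is not given in the sources used here. All barcodes held at least 500 UMIs.

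Filters removed barcodes with under 200 genes (36 and 38) and with more than 10% of UMIs from mitochondrial genes (509 and 773), then doublets marked by Scrublet in each library (977, or 6.11%, and 728, or 4.94%). Counts were scaled to 10000 per cell, and 2000 variable genes without chemokine receptors gave 40 principal components, a graph of 20 neighbours and Leiden clusters (scanpy 1.11.5, resolution 1), named from marker lists. Both libraries were clustered together without integration. Finer clusters used resolution 2.

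UMIs were summed per class and library. CPM carries an exact Poisson interval, a ratio an exact conditional binomial interval and a share a Clopper-Pearson interval (95%). Interval and ratio code was tested on simulated data. Ratios are Cd36-/- over fl/fl, and a gene was compared with a mean of at least 10 CPM and at least 20 UMIs. Shares were thinned to 1000 UMIs per cell, leaving out shallower cells. The text names all 9 receptors, up to 4 genes per list and class with the interval bound farthest from 0, list genes past 2-fold, the 3 most similar genes per receptor (at least 20 CPM in a class) and markers. Receptors and lists were chosen with earlier results of these data known. Rgs19 and the ligand levels were named after their values were seen. Alternatives were other filters, doublets kept, per-cell marker gates, resolution 2, receptors kept in the clustering, median-ratio scaling, other thinning, other CPM minimums and a 1.5-fold limit.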

Additional observations from a re-analysis of the deposited data

How the results depend on the processing

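The 39 log2 ratios were recomputed under 8 alternatives. Limits of 5% and 20% on mitochondrial UMIs, receptors kept in the clustering and median-ratio scaling moved none of them out of its interval, at least 500 genes per cell and doublets kept moved 1 each, resolution 2 moved 3 of 38, and per-cell gates moved 13. The number of receptor and class pairs past 2-fold, 0 as reported, was 1 with at least 500 genes per cell (Cxcr2 in neutrophils), 2 with per-cell gates (Cxcr2 in neutrophils and Ccr2 in neutrophils, the latter at 3.25, 1.52 to 5.64, against -0.14 as reported), 4 with a 1.5-fold limit, and 0 under the other alternatives. Ccr2 in Gata6-low macrophages stayed between -0.31 and -0.20.

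Under 7 alternatives the class with the highest level was that reported, except that gates put Ccr2 (575 CPM) and Cx3cr1 (102 CPM) first in cDC2 and Ccr9 first in B-1 cells, resolution 2 put Ccr9 first in CD8 T cells, and receptors kept in the clustering put Cxcr5 first in B-1 cells. Gated MHC class II macrophages, most of them from the Gata6-low class named by clustering, had 476 and 551 CPM of Ccr2. Without thinning, Ccr2 was still seen more often in Gata6-low cells with Cx3cr1 (85.8% against 66.4%, and 91.4% against 72.95%), and Ccr1 also more often in those with Ccr2 (70.8% against 59.6%, and 72.05% against 64.6%). The genes past 2-fold over all genes numbered 8 in LPM and 294 in CD4 T cells as reported, 6 and 94 at a mean of at least 20 CPM, 18 and 294 at 5 CPM, and 64 and 1164 at 1.5-fold. No paired analysis was possible because each group has 1 library. Thinning allows only 14 and 34 neutrophils, so their shares are not read. Low levels such as Ccr9 rest on few UMIs, and free RNA was not removed.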
